A study of Homo sapiens with 16 samples.

Results

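NF-kB is a family of transcription factors that sit in the cytoplasm in resting cells, held there by IkB proteins, and move to the nucleus once an IkB kinase has marked the inhibitor for degradation. Signals from TNF, interleukin-1, Toll-like receptors and viral RNA all end at this step. Among the genes that active NF-kB switches on are those of its own inhibitors, so that the level of the inhibitor transcripts is widely read as a trace of the activity. The genes described here were the subunit genes NFKB1 (p105/p50), NFKB2 (p100/p52), REL, RELA (p65) and RELB, the inhibitor genes NFKBIA (IkB alpha) and NFKBIE (IkB epsilon), the ubiquitin-editing feedback inhibitor TNFAIP3 (A20), and the target genes BIRC3 and ICAM1, an adhesion molecule for leukocytes. They were chosen by name, as every probe set of the table whose platform annotation gives exactly 1 symbol equal to one of these names. Of the 10 genes, 9 had such a probe set, with 16 probe sets in all among the 22277 of the table. BIRC3 had none with a single symbol and was not analysed here.

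The data come from 16 Affymetrix U133 2.0 arrays, 2 for each of 8 groups, from 4 human lines labelled as breast cancer cells. The invasive lines, MDA-MB-231 and its lung-metastatic derivative LM24175, were stably infected with an empty vector (EV) or with a construct that constitutively expresses RECK, a protease inhibitor anchored in the cell membrane that acts on matrix metalloproteinases. The poorly invasive lines, Hs343T and Hs606T, were transfected with a scrambled siRNA (siSCR) or an siRNA labelled as targeting RECK (siRECK). The labels do not say whether an infected line was 1 clone or a pool, how long cells were kept after transfection, or whether replicate arrays hold RNA of separate cultures. The p-values therefore measure the spread between arrays alone, and that spread may be technical. Values are log2 expression per probe set. A gene was read from its probe set with the highest mean over all arrays, 11963 genes were tested together in limma, and a gene passed at an adjusted p under 0.05 (Benjamini-Hochberg over all genes of the comparison). Differences are log2 values of the treated arm minus its control arm, and levels of different probe sets are not comparable with each other.

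Some facts of the series touch the values below. By its probe set with the highest mean, RECK itself was higher, not lower, on the arrays labelled siRECK. It read 11.27 ± 0.05 against 5.80 ± 0.39 in Hs343T and 11.1 ± 0.10 against 8.69 ± 0.06 in Hs606T (SD, n = 2 each). The siRNA arms are therefore called by their labels. The other RECK probe sets differed by 0.46 and 0.27 in Hs343T and by 0.17 and -0.10 in Hs606T. Of these only the 0.46 passed (limma adjusted p = 0.00157 over all probe sets). The RECK level did not pass in either line with the construct. In Hs343T and Hs606T all 10 fibroblast and mesenchymal markers of a list of 10 lay above the array median in both arms, and 3 of 8 epithelial markers did so in each line with siSCR. Among these, KRT18 and KRT19 read 10.2 and 9.85 in Hs343T and 8.34 and 10.7 in Hs606T, while EPCAM read 4.10 and 4.67. In the empty-vector arms 6 of the 8 lay above the median in MDA-MB-231 and 5 in LM24175, and CDH1 lay below the lower quartile in all 4 lines. None of the 6 measured leukocyte markers lay above the array median in any of the 8 groups, and their mean level per array stayed between 4.78 and 5.14. On 2 arrays, the first EV array of MDA-MB-231 and the first RECK array of LM24175, genes deviated together from the replicate (r = 0.486 over genes, which are not independent replicates). With 2 arrays per group the second arrays deviate equally the other way, so which array of each pair is odd cannot be told. These first arrays are called the deviating arrays below. ICAM1 lay 0.73 and 0.95 below the replicate there (differences of -0.73 and -0.95), and RELB 0.37 below on each (-0.37).

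Sequences before the start sites are shown for TNFAIP3, NFKBIA, ICAM1 and RELA, the 4 genes with the largest differences in Hs343T, and for NFKB1 as a subunit gene that holds a kB match. In RefSeq (GRCh38.p14), 8 of the 10 genes had an entry, with 12 start sites in all, and RELB and NFKBIE had none. The kB consensus, the 10-base motif that NF-kB dimers bind, was searched on both strands in the 250 bases before each start. It was found at 7 of the 12 start sites, in 6 of the 8 genes, against 9.96% of all 35116 start sites in the table. The motif is nearly its own reverse complement, so 1 site can match on both strands. Each run below gives the strand of the gene from 5′ to 3′, with matches to the kB consensus in capitals.
TNFAIP3 (chr6:137867009-137867258, plus strand): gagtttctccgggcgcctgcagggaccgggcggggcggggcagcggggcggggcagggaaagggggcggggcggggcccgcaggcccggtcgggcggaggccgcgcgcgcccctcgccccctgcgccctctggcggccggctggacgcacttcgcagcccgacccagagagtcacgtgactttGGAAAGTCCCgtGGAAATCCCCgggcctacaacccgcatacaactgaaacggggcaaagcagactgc
NFKBIA (chr14:35404750-35404999, minus strand): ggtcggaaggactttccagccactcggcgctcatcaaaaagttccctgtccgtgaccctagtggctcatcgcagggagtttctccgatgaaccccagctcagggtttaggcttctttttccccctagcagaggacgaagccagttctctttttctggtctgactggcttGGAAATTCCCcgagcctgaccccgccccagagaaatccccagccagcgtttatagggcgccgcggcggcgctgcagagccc
RELA (chr11:65663858-65664107, minus strand, second of its start sites): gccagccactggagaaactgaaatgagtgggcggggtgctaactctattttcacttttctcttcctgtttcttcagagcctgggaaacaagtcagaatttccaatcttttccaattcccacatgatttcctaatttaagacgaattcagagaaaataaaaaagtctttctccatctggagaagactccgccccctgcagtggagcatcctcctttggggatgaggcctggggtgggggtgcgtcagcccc
NFKB1 (chr4:102501109-102501358, plus strand, first of its start sites): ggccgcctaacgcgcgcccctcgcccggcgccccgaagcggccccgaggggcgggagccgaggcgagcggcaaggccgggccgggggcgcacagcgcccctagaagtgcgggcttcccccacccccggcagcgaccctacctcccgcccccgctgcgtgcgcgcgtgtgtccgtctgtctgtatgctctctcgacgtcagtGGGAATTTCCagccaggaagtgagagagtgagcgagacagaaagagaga
ICAM1 (chr19:10270870-10271119, plus strand): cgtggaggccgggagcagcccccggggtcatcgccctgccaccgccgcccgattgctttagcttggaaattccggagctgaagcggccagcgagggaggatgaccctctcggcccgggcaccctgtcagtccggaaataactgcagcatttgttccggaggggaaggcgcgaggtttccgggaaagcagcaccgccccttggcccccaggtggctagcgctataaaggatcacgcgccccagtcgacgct

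TNFAIP3 held 2 matches side by side, from 67 to 58 and from 55 to 46 bases before its start. NFKBIA held 1 from 81 to 72 and NFKB1 1 from 49 to 40 bases before the start. ICAM1 and both start sites of RELA held no full match, which says only that these letters are not in these windows. NFKB2 and REL, whose highest probe sets are described below as not passing in Hs343T, held matches too, as did BIRC3. A repeat of the kind that interferon regulatory factors bind (GAAA, any 2 bases, GAAA) was searched on both strands in the same windows. On either strand it was found at 3.02% of all start sites. Among these genes it was found once, in RELA as GAAACTGAAA (237 to 228 bases before the second listed start).

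In Hs343T, the inhibitor genes, ICAM1 and most subunit genes stood higher with the siRNA labelled siRECK than with siSCR. TNFAIP3 rose 5.96-fold, NFKBIA 5.92-fold and ICAM1 5.38-fold, RELA rose 2.48-fold, and NFKB1, NFKBIE and RELB rose between 1.53-fold and 1.75-fold (n = 2 and 2). NFKB2 and REL did not pass. In all 7 of the 9 genes rose and none fell, in a comparison where 12.0% of all 11963 genes rose and 17.4% fell. The median difference of the 9 genes was 0.81 log2 units, and that of all genes -0.06. In 7 of the 9 genes the arms did not overlap, against 65.6% of all genes.

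TNFAIP3 encodes A20, which removes activating ubiquitin chains from the signalling complex and so ends the response. It read 9.47 and 9.46 on the siSCR arrays of Hs343T and 12.06 and 12.02 on the siRECK arrays. The arms lay far apart, and the siRECK arrays were the highest of the whole series for this gene. Its difference was 2.57 (SE 0.10; 95% interval 2.36 to 2.79; limma adjusted p = 1.83e-09). The second TNFAIP3 probe set gave 2.85 (limma adjusted p = 2.22e-09 over 22215 probe sets).

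NFKBIA encodes IkB alpha, the inhibitor that is degraded and made anew in each round of signalling. On the siSCR arrays of Hs343T it read 9.10 and 9.07, the lowest of the 8 groups, and on the siRECK arrays 11.66 and 11.64, the highest. The rise was 2.57 log2 units (SE 0.13; 95% interval 2.28 to 2.85; limma adjusted p = 2.09e-08). NFKBIE, the gene of IkB epsilon, moved less. Its siSCR arrays read 6.6 and 6.15 and its siRECK arrays 7.16 and 7.0, which do not overlap, with a difference of 0.70 (SE 0.13; limma adjusted p = 0.00155).

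ICAM1 read 8.09 and 8.04 in Hs343T with siSCR and 10.42 and 10.57 with siRECK. Again the arms did not overlap, and the rise was 2.43 (SE 0.26; 95% interval 1.86 to 3.0; limma adjusted p = 1.87e-05). Its other probe sets rose as well, the second by 3.48 (adjusted p = 8.53e-06 in limma) and the third and dimmest by 1.21 (adjusted p = 5.04e-04 in limma). The 3 probe sets therefore shared the direction but differed in size, from 1.21 to 3.48.

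**Figure D1:**
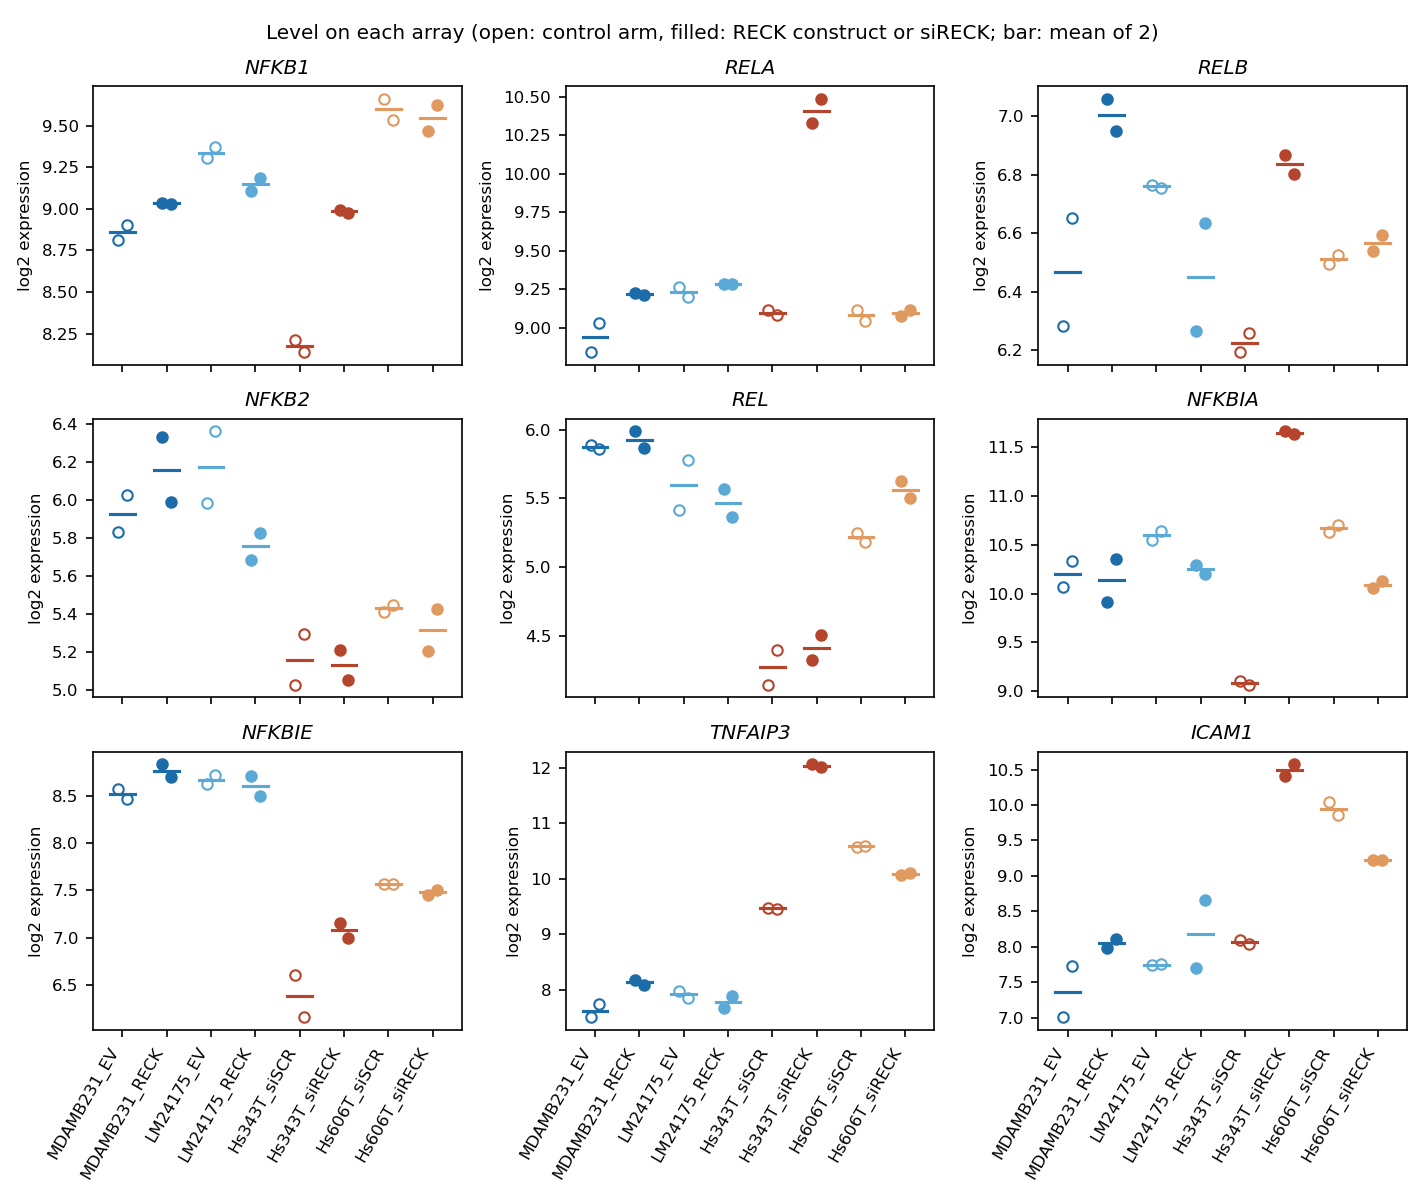
Log2 expression (vertical axis, a separate scale in each panel) of the 9 genes on each of the 16 arrays, grouped along the horizontal axis by line and arm. Open points are control arms, filled points the RECK construct or siRECK, and bars the mean of 2 arrays. For TNFAIP3, NFKBIA, ICAM1 and RELA both Hs343T arrays labelled siRECK lie above all other arrays, with NFKBIA at 11.66 and 11.64.

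Among the subunits, RELA, which encodes the main activating subunit p65, read 9.12 and 9.08 with siSCR and 10.33 and 10.49 with siRECK in Hs343T. No other group reached that level: on the remaining 14 arrays RELA lay between 8.84 and 9.29. The rise was 1.31 (SE 0.09; 95% interval 1.12 to 1.5; limma adjusted p = 2.1e-07), and a second RELA probe set rose by 0.64 (limma adjusted p = 0.00100). NFKB1, whose product is cut to the p50 subunit, read 8.21 and 8.14 against 9.0 and 8.98, a rise of 0.81 (SE 0.08; limma adjusted p = 1.18e-05). RELB, a subunit of the alternative pathway, read 6.20 and 6.26 against 6.87 and 6.80, a rise of 0.61 (SE 0.13; limma adjusted p = 0.00334). All of these arms were separate.

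NFKB2, which encodes the p100 precursor of the alternative pathway, differed by probe set. The probe set with the highest mean read 5.03 and 5.29 with siSCR and 5.21 and 5.05 with siRECK in Hs343T, a difference of -0.03 (95% interval -0.37 to 0.31; limma adjusted p = 0.921). The next by mean read 5.09 and 4.95 against 5.54 and 5.67 and rose by 0.59 (SE 0.12; limma adjusted p = 0.00282 over all probe sets). Both lie between the lower quartile and the median of the arrays, and which of them follows the NFKB2 transcript was not tested. The last one lay below the lower quartile in all groups and differed by 0.10 (limma adjusted p = 0.517).

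REL, the gene of the c-Rel subunit, read 4.14 and 4.40 in Hs343T with siSCR and 4.32 and 4.50 with siRECK. The arms overlapped and the difference of 0.14 did not pass (95% interval -0.14 to 0.43; limma adjusted p = 0.473). This level is below the lower quartile of the Hs343T arrays, for which no detection calls were used here, and the second REL probe set lay lower still, between 2.97 and 3.74 on all arrays. Of the 16 probe sets tested alone, 12 rose in Hs343T and none fell, where 10.4% of all probe sets rose.

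Other genes moved with these in Hs343T. All 10 measured interferon-stimulated genes of a list of 12 rose, by 4.12 to 9.02, and 8 of 10 cell division genes fell. Over all genes 12.0% rose and 17.4% fell. The arms also differed slightly in a sign of RNA quality, the GAPDH 3′ minus 5′ value, at 0.37 with siSCR and 0.45 with siRECK. Their part in the values of the NF-kB genes was not tested.

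In Hs606T, where the same 10 interferon-stimulated genes also rose (1.03 to 3.14), the inhibitor genes and ICAM1 were not higher on the arrays labelled siRECK. TNFAIP3 fell, from 10.58 and 10.59 with siSCR to 10.07 and 10.11 with siRECK. The arms did not overlap, and the log2 difference was -0.49 (SE 0.10, n = 2 and 2; limma adjusted p = 0.0395), a fall of 1.41-fold (95% interval 1.21 to 1.64). It was the 1 gene of the 9 that passed, where 0.385% of all genes fell and 0.811% rose. The call was narrow. Its limma adjusted p was 0.0954 with only the arrays compared, from 0.112 to 0.237 without any 1 of the Hs606T arrays, and from 0.0589 to 0.0644 without any 1 of the arrays of Hs343T, MDA-MB-231 RECK or LM24175 EV. Its other probe set had a difference of -0.65 (limma adjusted p = 0.0196) and was the 1 of 16 probe sets that passed when each was tested alone, where 0.270% of all probe sets fell; the first then had an adjusted p of 0.0509 in limma.

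NFKBIA read 10.63 and 10.70 with siSCR and 10.06 and 10.13 with siRECK in Hs606T. The arms were separate, and the difference of -0.57 did not pass (SE 0.13; 95% interval -0.86 to -0.29; limma adjusted p = 0.0616). ICAM1 read 10.04 and 9.86 against 9.22 and 9.23, again separate, with a difference of -0.72 that did not pass (95% interval -1.30 to -0.15; limma adjusted p = 0.285). Leaving out both deviating arrays, which are of other lines, changed neither difference. Both then passed, through the shared spread. Over the 9 genes the median difference in Hs606T was -0.09 and over all genes -0.0049, and the arms of 6 of the 9 did not overlap, against 48.8% of all genes.

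The subunit genes of Hs606T stayed close to their control arm. NFKB1 differed by -0.05 (95% interval -0.23 to 0.13), RELA by 0.01 (-0.17 to 0.20), RELB by 0.06 (-0.23 to 0.34), NFKB2 by -0.11 (-0.45 to 0.22) and NFKBIE, the inhibitor gene, by -0.09 (-0.38 to 0.20). REL differed by 0.35, with 5.24 and 5.18 against 5.62 and 5.50, and did not pass (limma adjusted p = 0.314).

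**Figure D2:**
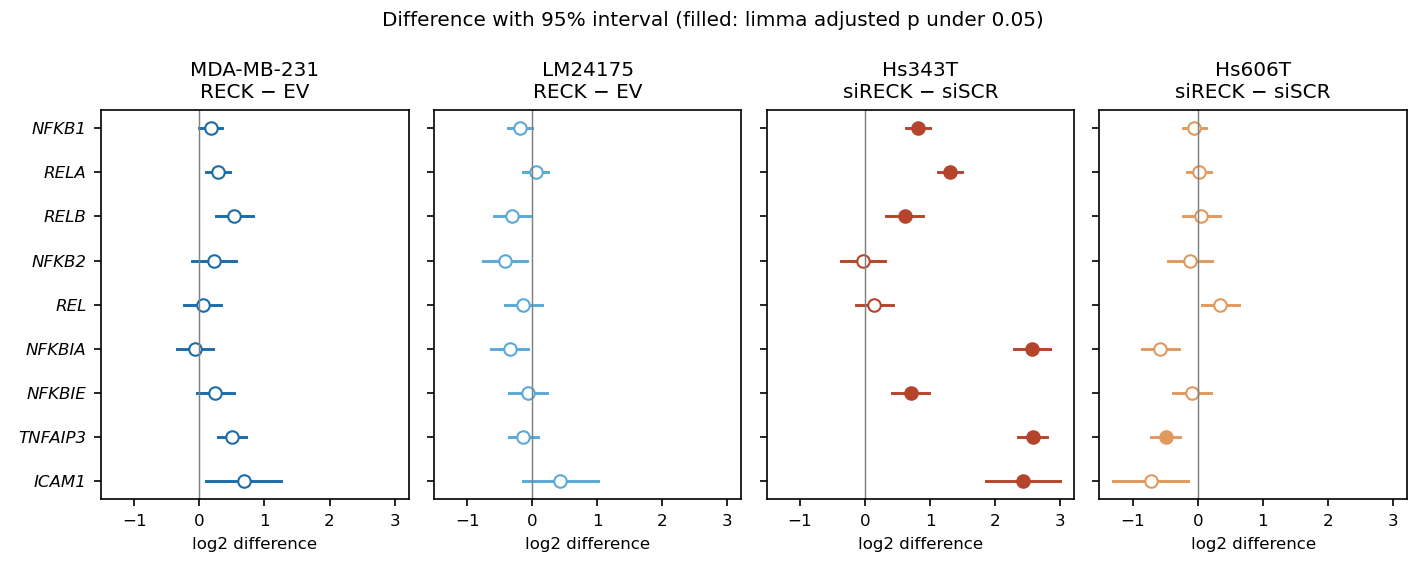
Log2 differences (horizontal axis) of the 9 genes between the treated and the control arm in each of the 4 lines, with 95% intervals of the limma fit. Filled points passed an adjusted p of 0.05. In Hs343T 7 genes pass, with TNFAIP3 at 2.57, and in Hs606T TNFAIP3 alone passes, at -0.49.

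The siRNA responses of the lines were compared directly as a difference of differences, Hs606T minus Hs343T. It passed for 6 of the 9 genes, all toward a lower response in Hs606T, where 8.72% of all genes passed in that direction and 11.6% in the other. The largest were ICAM1 at -3.15 (SE 0.37; limma adjusted p = 7.65e-05), NFKBIA at -3.14 (SE 0.18; limma adjusted p = 1.86e-07) and TNFAIP3 at -3.07 (SE 0.14; limma adjusted p = 3.22e-08). RELA followed at -1.30, NFKB1 at -0.86 and NFKBIE at -0.79. RELB missed the threshold at -0.55 (limma adjusted p = 0.0529), but passed under several alternatives, with a limma adjusted p of 0.0116 with quantile normalization, 0.00516 with only the arrays compared and 0.0213 or 0.0244 without 1 EV array of MDA-MB-231 or 1 RECK array of LM24175. The interval of REL (-0.20 to 0.61) held 0. For NFKB2 the probe sets disagreed: the brightest gave an interval of -0.56 to 0.39, the next passed at -0.93 (95% interval -1.30 to -0.57; limma adjusted p = 0.00213 over all probe sets), and the mean of all 3 gave -0.40 (limma adjusted p = 0.0487).

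**Figure D3:**
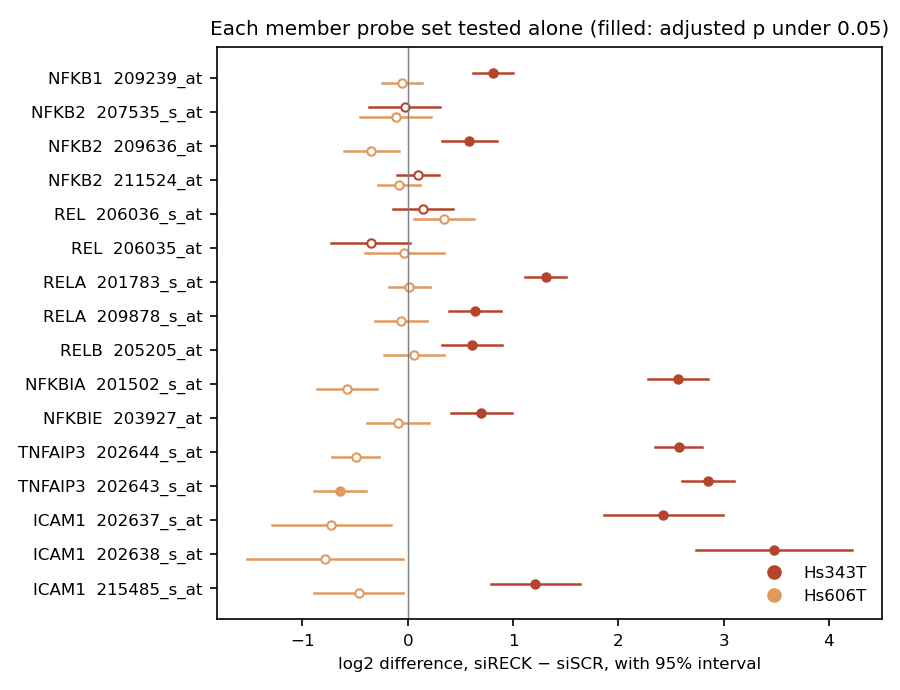
Log2 differences (horizontal axis) between the arrays labelled siRECK and siSCR for each of the 16 probe sets, with 95% intervals, in Hs343T and in Hs606T. Filled points passed an adjusted p of 0.05 over all probe sets, 12 in Hs343T and 1 in Hs606T. The 3 probe sets of ICAM1 range from 1.21 to 3.48 in Hs343T, and those of NFKB2 disagree.

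The control arms already differed between these lines. With siSCR, 6 of the 9 genes were higher in Hs606T than in Hs343T and none was lower, where 18.4% of all genes were higher and 18.5% lower. ICAM1 was higher by 1.88 (SE 0.26; limma adjusted p = 1.35e-04), NFKBIA by 1.58 (limma adjusted p = 1.9e-06), NFKB1 by 1.43 (limma adjusted p = 1.23e-07), NFKBIE by 1.19, TNFAIP3 by 1.12 and REL by 0.94. RELA did not differ beyond an interval of -0.20 to 0.17. This comparison uses the same Hs343T siSCR arrays as the siRNA comparison, so the values of both hang together. Interferon-stimulated genes also stood higher in Hs606T with siSCR, at 9 of 10, and all 10 cell division genes stood lower; their part was not tested.

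In MDA-MB-231 none of the 9 genes passed between the RECK construct and the empty vector, where 0.276% of all genes passed. The median difference was 0.25 over the 9 genes and 0.0081 over all genes. Before adjustment, 4 of the 9 had a p under 0.05, against 11.6% of all genes. TNFAIP3 read 7.50 and 7.75 with empty vector and 8.18 and 8.09 with the construct, which did not overlap, with a difference of 0.51 (SE 0.10; 95% interval 0.29 to 0.72; limma adjusted p = 0.0641). RELB read 6.28 and 6.65 against 7.06 and 6.95, a difference of 0.54 (95% interval 0.25 to 0.82; limma adjusted p = 0.126). ICAM1 read 7.0 and 7.73 against 7.98 and 8.11, with the first empty-vector array well below the others, and differed by 0.68 (95% interval 0.11 to 1.25; limma adjusted p = 0.346).

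The other genes of MDA-MB-231 differed by less. RELA differed by 0.28 (limma adjusted p = 0.236), NFKBIE by 0.25, NFKB2 by 0.23, NFKB1 by 0.17 and REL by 0.05. NFKBIA read 10.07 and 10.33 against 9.91 and 10.36, with overlapping arms and a difference of -0.07 (95% interval -0.35 to 0.22). In 6 of the 9 genes the arms did not overlap, against 37.8% of all genes. Single arrays moved these calls. The difference without the second empty-vector array was 0.63 for TNFAIP3, 0.72 for RELB and 0.38 for RELA. That fit leaves the array called deviating as the only control. Over all alternatives the smallest differences of these genes were 0.38, 0.35 and 0.19. TNFAIP3 and RELB passed without either RECK array of LM24175, through the shared spread.

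In LM24175 none of the 9 genes passed either, where 6.70% of all genes did, with a median of -0.14 over the 9 and 0.0013 over all genes. Here too 4 of the 9 had an unadjusted p under 0.05, against 19.0% of all genes. NFKB2 read 5.98 and 6.36 with empty vector and 5.68 and 5.83 with the construct, a difference of -0.42 (95% interval -0.75 to -0.08; limma adjusted p = 0.152). NFKBIA read 10.55 and 10.64 against 10.30 and 10.20, which did not overlap, and differed by -0.35 (95% interval -0.63 to -0.06; limma adjusted p = 0.156). RELB differed by -0.31, with 6.77 and 6.76 against 6.27 and 6.64, and NFKB1 by -0.19. Without the second RECK array, which leaves the array called deviating alone in its arm, RELB differed by -0.49. Over all alternatives the RELB difference ran from -0.49 to -0.13.

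ICAM1 split the construct arm of LM24175, at 7.70 and 8.65 against 7.74 and 7.76 with empty vector. The first of these is the array called deviating, and for ICAM1 it lies by the empty-vector arrays while the second stands apart. The difference of 0.43 did not pass (limma adjusted p = 0.434). Without both deviating arrays it was 0.91, which rests on the second construct array alone. TNFAIP3 read 7.99 and 7.85 against 7.68 and 7.89 and differed by -0.14 (95% interval -0.36 to 0.08). RELA, NFKBIE and REL differed by 0.05, -0.07 and -0.13. The arms of 5 of the 9 genes did not overlap, against 47.8% of all genes.

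The construct responses of the invasive lines differed for RELB and, by its probe set with the highest mean, for TNFAIP3. The second TNFAIP3 probe set gave -0.56, LM24175 minus MDA-MB-231, and did not pass (limma adjusted p = 0.0926 over all probe sets). LM24175 minus MDA-MB-231 was -0.85 for RELB (SE 0.18; limma adjusted p = 0.0282) and -0.64 for TNFAIP3 (SE 0.14; limma adjusted p = 0.0312), and for the remaining 7 genes it lay between -0.65 and -0.19 without passing. Both calls were lost with only the 8 arrays compared (limma adjusted p = 0.174 and 0.185) and without both deviating arrays (limma adjusted p = 0.0506 and 0.0950). RELB was also lost without either EV array of LM24175 or without the first EV or RECK array of MDA-MB-231 or the first RECK array of LM24175 (limma adjusted p from 0.0723 to 0.111). TNFAIP3 was lost without those and without the second RECK array of MDA-MB-231 or either siSCR array of Hs343T or Hs606T (limma adjusted p from 0.0504 to 0.125). Over all genes 1.99% passed in this direction and 1.65% in the other, that is 238 and 197, and centring every array on its median made it 183 and 230.

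With empty vector, NFKB1 and RELA were higher in LM24175 than in MDA-MB-231, by 0.48 (SE 0.08; limma adjusted p = 0.0015) and 0.29 (SE 0.09; limma adjusted p = 0.0285), where 9.87% of all genes were higher and 10.9% lower. NFKBIA at 0.39 (limma adjusted p = 0.0502) and TNFAIP3 at 0.29 (limma adjusted p = 0.0599) lay just outside the threshold. Both passed with quantile normalization and with arrays centred on their medians. Of the 25 alternatives, NFKBIA did not pass under 16 and TNFAIP3 under 17. Over all alternatives NFKBIA ran from 0.26 to 0.53 and TNFAIP3 from 0.17 to 0.42. The second RELA probe set differed by 0.07 (limma adjusted p = 0.788 over all probe sets). The RELA call was lost with the mean of its probe sets (0.18, limma adjusted p = 0.1705) and with only the arrays compared (limma adjusted p = 0.188). It was also lost without the first empty-vector array of MDA-MB-231, at 0.20, and without the first or the second of LM24175, at 0.26 and 0.33.

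Across all 8 groups the genes kept different orders. TNFAIP3 was at 9.46 or higher on every array of Hs343T and Hs606T and at 8.18 or lower on every array of MDA-MB-231 and LM24175. From the top its group means ran from Hs343T siRECK (12.04) through Hs606T siSCR (10.58), Hs606T siRECK (10.09), Hs343T siSCR (9.47) and MDA-MB-231 RECK (8.13) to a last set of LM24175 EV, LM24175 RECK and MDA-MB-231 EV (7.92, 7.78 and 7.63) whose neighbours overlapped. NFKBIE had the opposite split, from 8.47 to 8.84 on the arrays of the invasive lines and from 6.15 to 7.57 on those of the poorly invasive lines. For NFKB2 the brightest probe set ran from 5.68 to 6.36 in the invasive lines against 5.03 to 5.45, but the ranges of its other probe sets overlapped (5.11 to 5.82 against 4.90 to 5.67, and 3.71 to 4.08 against 3.8 to 4.24). Lines and the kind of treatment, vector or siRNA, cannot be told apart in these splits.

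NFKBIA and ICAM1 were ordered by group rather than by kind of line. For NFKBIA the ends were both Hs343T, siRECK at 11.65 and siSCR at 9.08, and the other groups lay between 10.09 and 10.67, where neighbours mostly overlapped. ICAM1 was highest in Hs343T siRECK (10.49), then Hs606T siSCR (9.95) and Hs606T siRECK (9.23), with Hs343T siSCR (8.07) among the invasive groups (7.37 to 8.18), overlapping both of its neighbours. NFKB1 ran from 9.60 in Hs606T siSCR down to 8.17 in Hs343T siSCR. REL was highest in MDA-MB-231 (5.93 and 5.87) and lowest in Hs343T (4.41 and 4.27), and RELB spanned the least of the 9 genes, 0.78 log2 units between its highest and lowest group.

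The rest of the pathway was read from lists chosen by function. Over all genes 12.0% rose and 17.4% fell in Hs343T, and 0.811% rose and 0.385% fell in Hs606T. Of 24 measured kinases, adaptors and ubiquitin ligases that carry the signal, 13 rose and 3 fell in Hs343T, with a median of 0.41. The falls were 12.5% of this list, under the share of all genes. MYD88, the adaptor of Toll-like and interleukin-1 receptors, rose by 2.59, the kinase gene MAP3K14 (NIK) by 1.53 and TRADD, the adaptor of the TNF receptor, by 1.38 (largest limma adjusted p = 7.17e-06). Of the 3 that fell, TRAF3 had the largest difference (-1.13); it, PLAU, IER3, TLR2 and CD40 are named here after their values were seen. In Hs606T, MYD88 alone of the 24 passed, at 0.57 (limma adjusted p = 0.00618), with a median of 0.01.

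Receptors that feed NF-kB rose in 5 of 12 cases in Hs343T and none fell, with a median of 0.31. Over all genes 12.0% rose and 17.4% fell there, and 0.811% rose and 0.385% fell in Hs606T. TLR3, the receptor for double-stranded RNA, rose by 6.32, TNFRSF1B by 0.76 and TNFRSF11A by 0.60. TLR3 was also the 1 receptor of the 12 to pass in Hs606T, at 0.52 (limma adjusted p = 0.0383). Of 12 negative regulators outside the genes above, 4 rose and 1 fell in Hs343T, with a median of 0.08, led by TNIP1, the partner of A20, at 1.36, IRAK3 at 1.06 and TAX1BP1 at 0.51, while none passed in Hs606T. The repressor gene NKRF and NFKBIB, the 2 measured of the 5 remaining family and IkB genes, did not pass in Hs343T or Hs606T.

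Of 28 other NF-kB target genes, 12 rose and 4 fell in Hs343T, with a median of 0.37. Over all genes 12.0% rose there and 17.4% fell, near the 14.3% of this list that fell. The chemokine gene CCL5 rose by 6.17 and the anti-apoptotic gene BCL2A1 by 3.42 and the adhesion gene VCAM1 by 3.37, while the urokinase gene PLAU fell by 3.14 (difference -3.14). In Hs606T, 1 of the 28 rose and 4 fell, where 0.811% of all genes rose and 0.385% fell. The 28 had a median of -0.33, and the falls were CXCL3 (-1.58), IL1B (-1.43), CXCL1 (-0.99) and IER3 (-0.63). With the construct, 3 of the 28 rose in MDA-MB-231, with a median of 0.22, where 0.226% of all genes rose. They were IL1B (2.09), CXCL3 (1.68) and CXCL1 (0.98). With only the arrays compared none of the 11963 genes passed in MDA-MB-231, so these 3 calls were lost too. In LM24175 MMP9 (1.09) and GADD45B (0.47) rose.

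**Figure D4:**
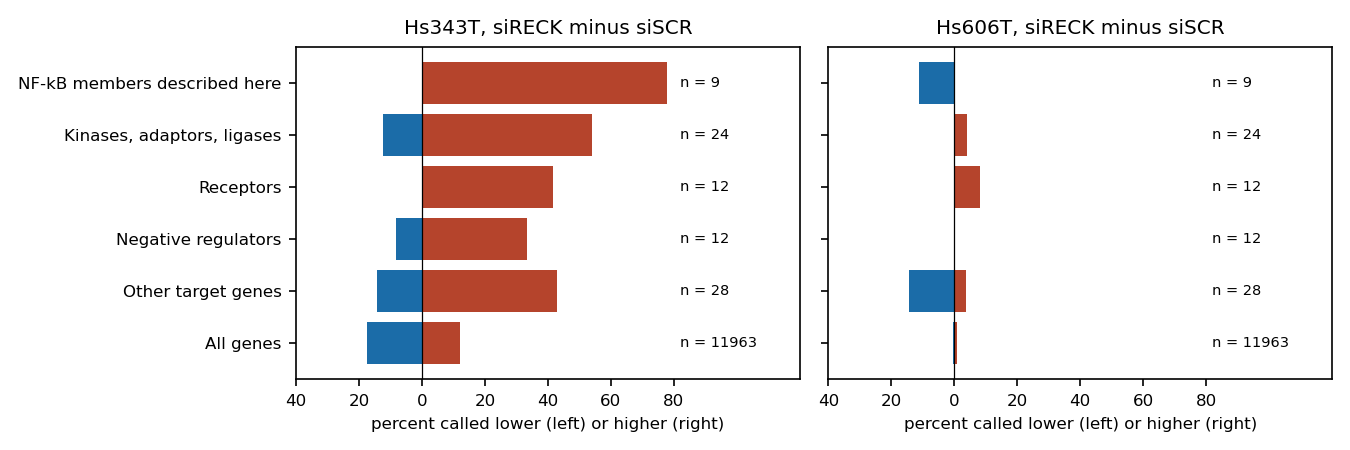
Percent of the measured genes of each list called lower (left of 0) or higher (right of 0) on the arrays labelled siRECK, in Hs343T and Hs606T, beside all 11963 genes. In Hs343T 7 of the 9 genes described here were higher and none lower, where 12.0% of all genes were higher and 17.4% lower. In Hs606T 1 of the 9 was lower, where 0.385% of all genes were.

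In LM24175 with the construct 8 of the 78 measured genes of these lists rose and 5 fell, where 3.44% of all genes rose and 3.27% fell. Among receptors, TLR3 (0.71) and TLR2 (0.63) rose, and TNFRSF1B (-1.06), LTBR (-0.63) and CD40 (-0.43) fell. The kinase gene IRAK1 rose by 0.72 and IKBKG, the regulatory subunit of the IkB kinase, by 0.46, and TRAF5 fell (-0.54). PDLIM2 (0.43) rose and the deubiquitinase gene CYLD (-0.36) fell, and NKRF rose by 0.57. In MDA-MB-231 no kinase, adaptor, receptor or negative regulator of these lists passed.

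Genes with profiles most like those of the NF-kB genes were found by the mean absolute difference between profiles, each centred on its own mean over the 8 group means, among 11954 genes. The measure describes these 8 groups and has no test. For TNFAIP3 the nearest were ATP10A (0.32 log2 units) and HEPH (0.34), for NFKBIA ADAR (0.23) and ABCA5 (0.23), and for ICAM1 PANX1 (0.21) and UBE2L6 (0.34). For RELA they were CHEK2 (0.06) and CASP4 (0.08), for NFKB1 NUP58 (0.12) and ASB7 (0.14), and for NFKBIE HSPBAP1 (0.10) and CEP350 (0.10). PHF14 (0.09) and BRAP (0.11) were nearest to REL, and FAM106A (0.06) and PTK2 (0.07) to NFKB2. RELB was left out because its group means spanned less than 1 log2 unit.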

How the data were processed

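The deposited table holds 1 log2 value per probe set and array. Per the submitters' processing notes Partek was used; no version, summary method or scaling is stated in those sources, and array medians ran from 6.42 to 6.57. The deposited log2 values were taken as given. Control probe sets (62) were left out, and symbols came from the platform annotation, where 19070 probe sets had 1 symbol, 1043 several, and 2164 were not listed. Of a gene's probe sets the one brightest on average over 16 arrays was used, with no filter on low values; none of the 9 genes lay among the 25% of genes with the lowest mean. limma 3.58.1 in R 4.3.3 fitted 8 group means with 8 residual degrees of freedom (prior 3.72), tested on simulated data. Every probe set was also fitted alone. Alternatives were other scalings, probe set rules, filters, variance settings, a replicate block and leaving out arrays. Genes outside the 9 were named as up to 3 of each list with the largest passing differences. The genes and lists were chosen with earlier results of these data known. The number of arrays, 2 per group, limits the precision.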

Additional observations from a re-analysis of the deposited data

Results flagged for a closer look

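The response to the siRNA labelled siRECK differed between the poorly invasive lines for 6 genes, as the test of the difference itself found (Hs606T minus Hs343T, limma over all genes). The difference was -3.15 for ICAM1 (adjusted p = 7.65e-05), -3.14 for NFKBIA (adjusted p = 1.86e-07), -3.07 for TNFAIP3 (adjusted p = 3.22e-08), -1.30 for RELA (adjusted p = 1.04e-05), -0.86 for NFKB1 (adjusted p = 2.37e-04) and -0.79 for NFKBIE (adjusted p = 0.0101). The response to the RECK construct differed between the invasive lines for RELB, at -0.85 (LM24175 minus MDA-MB-231, limma adjusted p = 0.0282), and for TNFAIP3, at -0.64 (limma adjusted p = 0.0312). Both calls were lost with only the arrays compared (limma adjusted p = 0.174 and 0.185) and under other alternatives given above.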

How the results depend on the processing

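Of 72 differences (9 genes in 8 comparisons), 54 kept their call under all 25 alternatives, and 20 of the 24 that passed did so. Of those that did not pass, 13 passed under some alternative with their sign kept. Beyond these, NFKB2 in Hs343T changed sign and passed when every probe set was tested alone. Another probe set then gave 0.59 (limma adjusted p = 0.00282). Without the 25% of genes with the lowest mean, 1 of the 9 genes passed in MDA-MB-231, 2 in Hs606T and 4 between the empty-vector arms. Of all genes tested there, 0.658%, 1.79% and 28.9% passed. With limma's trend and robust settings the numbers were again 1, 2 and 4, against 0.677%, 1.66% and 22.6% of all genes. Between the empty-vector arms it was 4 with quantile normalization and 4 with arrays centred on their median, against 20.8% and 20.5%. With only the arrays compared it was 0 in Hs606T, 0 for the difference of construct responses and 1 between the empty-vector arms. There 0.543%, 0.176% and 9.77% of all genes passed. Without both deviating arrays it was 1 in LM24175, 3 in Hs606T, 0 for the difference of construct responses and 1 between the empty-vector arms. Leaving out 1 array at a time gave 0 to 3 genes in MDA-MB-231, 0 to 1 in LM24175, 0 to 2 in Hs606T, 0 to 2 for the difference of construct responses, 6 to 7 for that of siRNA responses and 1 to 5 between the empty-vector arms, and 7 in Hs343T and 6 between the siSCR arms throughout. In these fits and in that without both deviating arrays, a lone array was assumed to vary like the other groups. For lines that kept all their arrays the differences stayed the same and only the shared spread changed. Same-numbered arrays of the 2 groups of a comparison did not deviate together (correlations from -0.05 to 0.047). The first EV array of MDA-MB-231 and the first RECK array of LM24175, of groups not compared directly, did (r = 0.486 over genes). With a replicate block 0 genes passed in Hs606T, where TNFAIP3 had a limma adjusted p of 0.0513. RELB in the difference of siRNA responses passed with the block (limma adjusted p = 0.0476), with arrays centred on their median (0.0276), without the 25% of genes with the lowest mean (0.0398) and without both deviating arrays (0.00156). The causes of these changes were not tested.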
